A study of Mus musculus with 48 samples.

Results

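A set of 9 nuclear genes that regulate mitochondrial biogenesis or belong to the PPAR system was followed in the subcutaneous white adipose tissue (sWAT, the inguinal depot) of mice fed on the TAN schedule or ad libitum (ad-lib). The 9 members were taken by gene name from the 54532 genes of the deposited count table, and all 9 were among the 19977 genes that passed the filter on low counts and were tested. Each of the 2 diets was sampled at 6 times of day, labelled 8AM, 12PM, 4PM, 8PM, 12AM and 4AM, with 4 libraries per diet and time and 48 in all. The labels give C57BL/6 mice of 8 months for every library, and no transgene, deletion or drug for any group. TAN mice had food in 2 windows of the night only, and the ad-lib mice, the only controls, had food at all times. The study describes the tissue as whole sWAT, whereas the series text calls it the stromal vascular fraction of iWAT. Adipocyte markers were high in every library, with all 10 of 10 detected. The labels do not say which libraries came from separate mice, so the p-values measure the spread between these libraries. In another table of the study, columns matched here to the 48 libraries by their values over 979 genes carried times 12 h away from those of the count table, for all 48. The times below are those of the GEO labels, under which the clock output gene Dbp had its fitted peak at hour 17.7 in ad-lib and 18 in TAN, and the clock activator Arntl at hour 5.7 and 6.3.

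PPARα and PPARδ (Ppara, Ppard) are nuclear receptors for fatty acids. They bind DNA as pairs with RXRα (Rxra) and switch on genes of fatty acid uptake and oxidation. Coactivators of the PGC-1 family, among them PGC-1β (Ppargc1b), work with the receptors and with the estrogen-related receptor ERRα (Esrra), which drives genes of the tricarboxylic acid cycle and of oxidative phosphorylation (OXPHOS). The nuclear respiratory factors NRF1 (Nrf1) and GABPα (Gabpa, also called NRF-2α) act at many promoters of respiratory chain genes. TFAM (Tfam) packages mitochondrial DNA and starts its transcription, which the polymerase POLRMT (Polrmt) carries out. In white adipose tissue this network is known for its part in mitochondrial content and in the response to cold and feeding.

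Several members are themselves placed downstream of NRF1 and GABPα in textbook schemes, so the letters around their RefSeq start sites are shown before the values. RefSeq windows on GRCm38.p6, from 250 bases before to 50 bases after the start, were at hand for 8 of the 9 members in 10 windows, and none was used for Ppargc1b. Both strands were searched for the NRF1 core CGCANGCG, the ETS letters CCGGAAG that GABPα reads, the estrogen-related receptor element TCAAGGTCA and the PPAR element DR1. The 250 bases before the Esrra start, at chr19:6921809-6922058 on the minus strand, held the NRF1 core at 2 places, which are in capitals and lie from -140 to -133 and from -95 to -88 counted from the start.
Esrra: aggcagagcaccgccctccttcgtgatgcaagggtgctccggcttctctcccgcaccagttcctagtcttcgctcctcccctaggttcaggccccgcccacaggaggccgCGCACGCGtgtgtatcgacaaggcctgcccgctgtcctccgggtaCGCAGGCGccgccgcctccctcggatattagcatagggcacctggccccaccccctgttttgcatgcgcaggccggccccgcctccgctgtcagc
The windows of the other members with a match are shown by the 30 bases around it, with the matching letters in capitals. They are, in turn, an ETS match of Tfam at chr10:71238073-71238102, an ETS match of Polrmt at chr10:79746606-79746635, an NRF1 core of Polrmt at chr10:79746568-79746597, an ETS match of Gabpa at chr16:84835020-84835049, an NRF1 core of Gabpa at chr16:84835105-84835134, an NRF1 core of Nrf1 at chr6:30047945-30047974 and an NRF1 core of Ppara at chr15:85735735-85735764, on the minus strand for Tfam and Polrmt and on the plus strand for the others.
Tfam, ETS: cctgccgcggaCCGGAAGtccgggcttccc
Polrmt, ETS: ccctaagagcgCTTCCGGcagtcgcagaac
Polrmt, NRF1 core: cctgcaggcggCGCGTGCGcgtgcgcactg
Gabpa, ETS: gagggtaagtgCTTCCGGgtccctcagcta
Gabpa, NRF1 core: actgcactgtaCGCATGCGtattctggcct
Nrf1, NRF1 core: gagccgtgcgtCGCGTGCGtgcctcctccc
Ppara, NRF1 core: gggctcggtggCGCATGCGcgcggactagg
Polrmt and Ppara each held a second NRF1 core match, which in Polrmt overlapped the one shown. The shown NRF1 core of Polrmt ran from -5 to 3, across the start, and its second match lay past the start, from 2 to 9. No window of a member held the estrogen-related receptor element or DR1, and the windows of Ppard and Rxra held none of the 4 motifs. Over all 32851 windows of RefSeq, 8.21% held the NRF1 core, 8.86% the ETS letters, 0.423% the estrogen-related receptor element and 0.128% DR1. Of the 250 bases before the start, G and C made up 68.4% in Esrra, 76.4% in Ppara and 72% in Tfam. The share was 59.6% in Gabpa, 46.8% in Polrmt and 76% in the Nrf1 window with a match. The shares over all windows were not matched for G and C. In the gene annotation of the same build (GENCODE M21), the shown Esrra stretch touched exons of Esrra for 5 bases, and the Gabpa window lay wholly within exons of Atp5j, an ATP synthase subunit gene of the opposite strand. Of the 250 bases before the start, 199 lay in Gabpa itself and 236, all in exons, in Tfam. Those of Ppara (150 in exons) and Rxra lay wholly in their own genes. The shown matches of Tfam, Gabpa and Ppara thus lay within the annotated gene bodies. These matches describe letters and not binding, which was not measured. The gene bodies lie, on GRCm38, at chr19:6910977-6921813 for Esrra, chr15:85734983-85802819 for Ppara, chr17:28232700-28301474 for Ppard and chr2:27676440-27762957 for Rxra. Those of the nuclear respiratory factors lie at chr6:30047988-30153458 for Nrf1 and chr16:84834925-84863779 for Gabpa, and those of the mitochondrial factors at chr10:71225464-71238280 for Tfam and chr10:79736123-79746581 for Polrmt.

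The members fell into an abundant and a scarce set. Per kb of gene length, in CPM, the counts scaled to a common library size, averaged over the 48 libraries, Rxra was highest at 24.2 ± 5.88 (SD), followed by Esrra at 16.2 ± 6.42, Gabpa at 15.4 ± 2.04 and Tfam at 15.3 ± 2.83. The order among Esrra, Gabpa and Tfam lay within their spread, as Esrra exceeded Gabpa in 25 of 48 libraries and Gabpa exceeded Tfam in 30. A gap followed, since Tfam exceeded the next gene, Nrf1, in 48 of 48. Nrf1 stood at 2.55 ± 0.703 CPM per kb, Ppara at 1.69 ± 1.35, Polrmt at 1.46 ± 0.634, Ppard at 1.02 ± 0.421 and Ppargc1b at 0.727 ± 0.568. Each pair of neighbours in this lower set differed by less than the larger of their 2 SDs. The authors' own group means in FPKM come from the same libraries and are also scaled to gene length, so they are no separate evidence. They placed the members in the same 2 sets, at 9.95 to 30.2 for Rxra, Esrra, Gabpa and Tfam and at 0.166 to 3.29 for the other members. Before scaling to length (10282 bases for Nrf1), Nrf1 was at 26.2 CPM and Esrra at 41.2. The spread between libraries differed widely among the members. The SD of CPM was 79.9% of the mean for Ppara, 78.1% for Ppargc1b, 43.3% for Polrmt, 41.4% for Ppard and 39.6% for Esrra, and it was 27.6% for Nrf1, 24.3% for Rxra, 18.5% for Tfam and 13.3% for Gabpa. Ppara and Ppargc1b had 0 counts in at least 1 library, whereas Gabpa never had fewer than 913 counts.

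**Figure D1:**
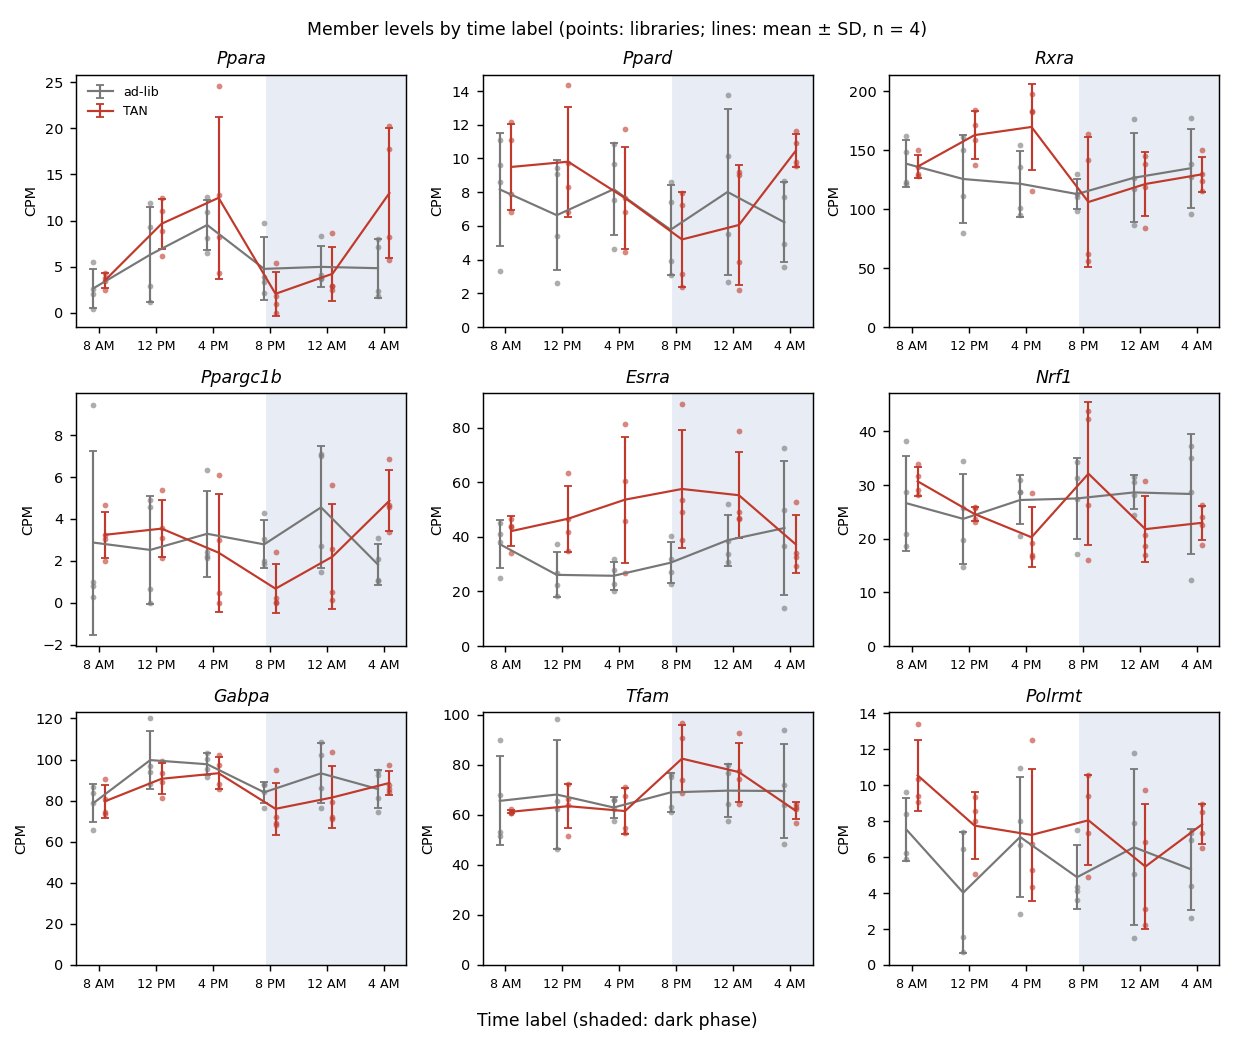
Level of each member in CPM (linear axis) against the time label, with 1 point per library, lines through the mean ± SD of 4 libraries and the dark phase shaded. Esrra in TAN ran above ad-lib from 12PM to 12AM with overlapping libraries, while the ranges of Gabpa and Tfam were narrow beside those of Ppara and Ppargc1b.

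Libraries differed in ways that touch these genes. Total counts ran from 15636378 to 29913310 in ad-lib and from 15685080 to 25440243 in TAN. The mean log2 CPM of the 10 lymphocyte markers ran from -0.53 to 7.17 in ad-lib and from -0.52 to 7.35 in TAN. That of the 10 skeletal muscle markers ran from -1.97 to 9.11 in ad-lib and from -2.31 to 7.07 in TAN. At 4PM the lymphocyte marker level was 6.02 to 6.80 in ad-lib and -0.32 to 4.48 in TAN, and the adipocyte marker level was 9.96 to 10.7 and 11.3 to 11.5, with no overlap in either. The share of counts in TEC features, unverified transcripts of the annotation, was 0.0882% to 0.110% in ad-lib and 0.0327% to 0.0847% in TAN at 4PM. In bulk tissue, fewer cells of a type and less RNA per cell cannot be told apart.

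Esrra was the member that rose under TAN. At 4PM the TAN libraries held 26.8, 60.6, 81.5 and 45.9 CPM of Esrra and the ad-lib libraries 22.8, 31.8, 20.4 and 28.1 CPM. Of the 4 TAN libraries, 3 lay above every ad-lib library and 1 lay inside their range. The log2 fold change was 1.06 (SE 0.329, 95% interval 0.39 to 1.73, adjusted p = 0.0293, edgeR quasi-likelihood test with Benjamini-Hochberg adjustment). Of all tested genes, 15.3% were called at this time, and Esrra was 1 of 9 members called. Its fold also passed the stricter rule of an absolute log2 fold change beyond 1, which 10.4% of all genes met. No member had TAN and ad-lib libraries without overlap at 4PM, against 30.6% of all tested genes.

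The fold changes of Esrra were also positive at the neighbouring times, where the test was not passed. At 8PM Esrra was at 49.0, 38.9, 53.5 and 88.9 CPM in TAN and at 27.0, 22.9, 32.1 and 40.3 CPM in ad-lib. The log2 fold change was 0.91 (SE 0.328, adjusted p = 0.059), with 11.7% of all genes called. This value passed with RLE scaling (adjusted p = 0.0454), with at least 10 counts in every library (0.033), with DESeq2 (0.0305), with the muscle covariate (0.049), with the adipocyte covariate (0.0256) and without TAN replicates 1 and 2 (0.0343), whereas with the TEC share it was 0.27 (adjusted p = 0.793). At 12PM it was at 63.5, 41.8, 34.9 and 46.5 CPM in TAN and at 22.3, 18.2, 37.3 and 26.6 CPM in ad-lib, a log2 fold change of 0.84 (SE 0.328, adjusted p = 0.594), with 0.0901% called. The groups overlapped at both times. At 12AM the log2 fold change was 0.51 (SE 0.326, adjusted p = 0.425), at 8AM it was 0.17 (SE 0.326, adjusted p = 0.948) and at 4AM it was -0.22 (SE 0.326, adjusted p = 1). Averaged over the 6 times, Esrra was higher in TAN by 0.55 on the log2 scale (SE 0.133, adjusted p = 0.0133), and 5.42% of all genes were called in that average. Over the 24 libraries of a diet it stood at 48.8 ± 16.1 CPM in TAN and 33.6 ± 12.9 CPM in ad-lib.

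The 4PM call of Esrra did not hold under every setting. With the lymphocyte marker level as a covariate the adjusted p was 0.275, with the adipocyte marker level 0.267 and with the TEC share 0.225, at log2 fold changes of 0.97, 0.78 and 0.67. Leaving out 1 library at a time gave log2 fold changes of 0.79 to 1.29, and the call was lost without ad-lib replicate 1, 3 or 4 or TAN replicate 2 or 3 of 4PM, with adjusted p up to 0.117. The average over the times kept its call with each library left out (adjusted p 0.00394 to 0.0253) and lost it with the TEC share as a covariate (adjusted p = 0.072). The part of library makeup in the difference was not tested otherwise. With no filter on low counts the 4PM call was also lost.

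The other 8 members did not pass the test at any of the 6 times. The share of all genes called was 0.015% at 8AM, 0.15% at 12AM and 0% at 4AM, so at those times few genes of any kind were called. At 4AM, 0 of 19977 genes passed with edgeR, 527 had an unadjusted p under 0.05 (0 of the members among them), and DESeq2 called 4 and limma voom 0. Averaged over the times, the differences between TAN and ad-lib were -0.08 for Gabpa (95% interval -0.19 to 0.03), -0.001 for Tfam (-0.16 to 0.15), -0.11 for Nrf1 (-0.34 to 0.13) and 0.10 for Rxra (-0.11 to 0.32), on the log2 scale. For the average of these 4 genes the intervals thus leave room for at most 0.34 in either direction. At single times the intervals were wider and left room for more. Examples were -0.04 to 1 for Rxra and -1.01 to 0.16 for Nrf1 at 4PM, -0.12 to 0.64 for Tfam at 8PM and -0.47 to 0.09 for Gabpa at 12AM. Polrmt, the mitochondrial RNA polymerase, was at 7.81 ± 2.76 CPM in TAN and 5.91 ± 2.92 CPM in ad-lib, a log2 difference of 0.41 (SE 0.211, adjusted p = 0.25). The intervals of the scarce members were wide, from -1.16 to 0.66 for Ppargc1b, -0.38 to 0.84 for Ppara and -0.24 to 0.54 for Ppard.

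**Figure D2:**
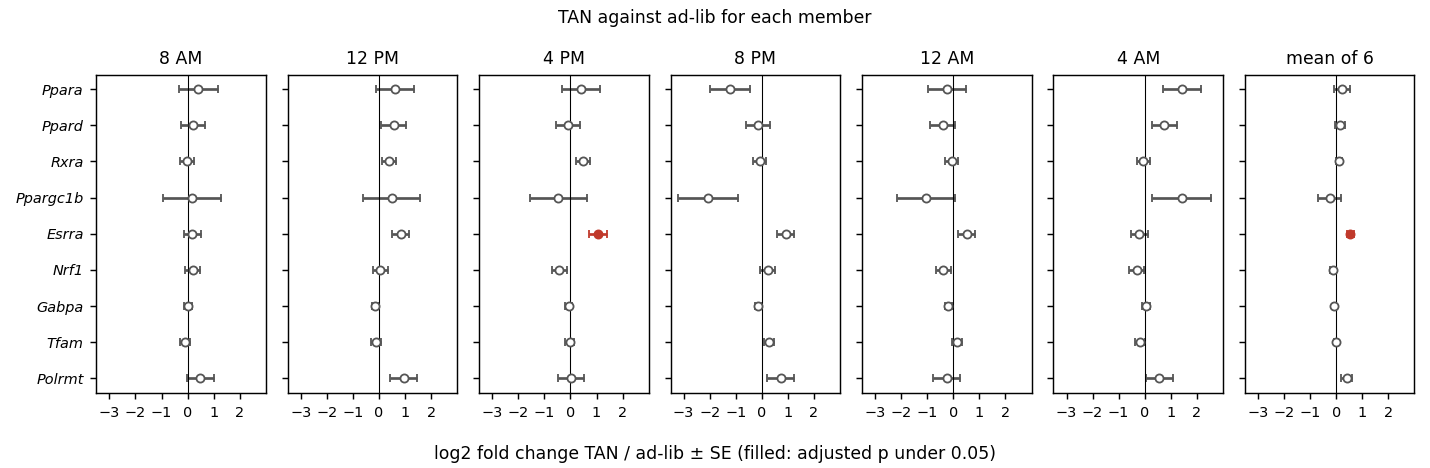
Log2 fold change of TAN over ad-lib with its SE for each member (rows) at each time label and for the mean of the 6 times (panels). Filled points mark an adjusted p under 0.05, which Esrra had at 4PM (1.06) and in the mean (0.55).

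Ppara was the member whose level varied over the day under TAN. TAN libraries held 4.27, 12.8, 8.19 and 24.6 CPM at 4PM, 0, 0.922, 1.85 and 5.41 CPM at 8PM and 20.2, 8.17, 17.7 and 5.76 CPM at 4AM. The 8PM libraries were the lowest, and all but the highest of them lay below the 4PM and 4AM libraries. The test of variation over the 6 times in TAN gave an adjusted p of 0.0291, with 23% of all genes called. The span between the highest and the lowest time, 4AM and 8PM, was 3.51 on the log2 scale. It was taken between means of log2 CPM, in which the 8PM library with 0 counts entered at -3.39. The mean CPM was 13 at 4AM and 2.04 at 8PM. In ad-lib the span was 2.2, from 8AM to 4PM, with an adjusted p of 0.961 and 0.0551% of all genes called. The adjusted p of the TAN variation rose to 0.0641 when 1 library was left out (TAN 8PM replicate 2 or TAN 4AM replicate 1 each ended the call) and to 0.0955 with the TEC share as a covariate. Between the diets, the log2 fold change of Ppara was -1.22 at 8PM (SE 0.752, adjusted p = 0.299) and 1.43 at 4AM (SE 0.744, adjusted p = 1). Without TAN 8PM replicate 4 the 8PM value was -2.35 (adjusted p = 0.0475). Whether the TAN effect differed between times was tested directly, with an adjusted p of 0.406 for Ppara, and 8.98% of all genes were called in that test.

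The coactivator Ppargc1b had its lowest levels in the same group. Its TAN libraries at 8PM held 0.0506, 0, 0.237 and 2.42 CPM, and the ad-lib libraries 3.03, 2.0, 1.83 and 4.30 CPM. The TAN libraries other than replicate 4 thus lay below every ad-lib library, and the log2 fold change was -2.06 (SE 1.16, adjusted p = 0.249). Without that replicate it was -4.81 (adjusted p = 0.0204), and limma voom with all libraries gave -3.98 (adjusted p = 0.0366), whereas with the TEC share as a covariate it was 0.56 (adjusted p = 0.872). The TEC share at 8PM was 0.0294% to 0.0394% in TAN and 0.0807% to 0.104% in ad-lib, and its part in the difference was not tested otherwise. At 4AM Ppargc1b was at 4.65, 4.55, 6.87 and 3.40 CPM in TAN and at 3.10, 1.04, 2.08 and 1.09 CPM in ad-lib. Ppard at 4AM was at 9.54, 11.6, 9.80 and 10.9 CPM in TAN and at 4.91, 7.72, 8.64 and 3.58 CPM in ad-lib. For both genes every TAN library lay above every ad-lib library at that time, 2 of 9 members against 3.09% of all genes without overlap, and the adjusted p was 1 for each. The endothelial marker level was lower at 8PM in TAN (3.99 to 5.84) than in ad-lib (5.89 to 6.74), and the adipocyte marker level of TAN replicates 1 and 2 was 9.22 and 8.64.

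Rhythms with a period of 24 h were tested through their cosine and sine terms over the 6 times of a diet. No member passed in ad-lib, where 0.0801% of all genes did, nor in TAN, where 19.8% did. By unadjusted p, Esrra in ad-lib (0.0169) and Tfam in TAN (0.0355) were under 0.05. The harmonic differed between the diets for Esrra (adjusted p = 0.0458), as for 20.2% of all genes. Its fitted peak lay at hour 3 in ad-lib, with an amplitude of 0.34 on the log2 scale, and at hour 19.1 in TAN, with an amplitude of 0.25. This call was kept in 21 of the 48 fits that left out 1 library, and was lost with limma voom (adjusted p = 0.0981), with the lymphocyte covariate (adjusted p = 0.0722) and with the TEC share (adjusted p = 0.78). In TAN, Ppara, Ppard, Ppargc1b, Nrf1 and Polrmt had fitted peaks between hours 7.5 and 9.7, Rxra at 11.4, Gabpa at 12 and Tfam at 21.6. The log2 amplitudes were 0.08 for Nrf1 and Gabpa, 0.2 for Tfam, 0.3 for Rxra and 0.32 for Polrmt. They were 0.57 for Ppard, 0.91 for Ppara and 1.74 for Ppargc1b. As none of these fits passed, the hours describe fits only and show no shared phase. Tfam at 8PM was at 68.7, 96.9, 90.7 and 73.8 CPM in TAN and at 61.2, 75.1, 76.5 and 63.4 CPM in ad-lib, with overlapping libraries. Of the 15 core clock genes measured beside them, 13 varied over the times in TAN, where 23% of all genes did, and 5 in ad-lib, where 0.0551% did.

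The genes that these regulators act with or act on were counted at 4PM, the time with the most calls. At 4PM, 72 of 76 nuclear OXPHOS genes were higher in TAN and 0 lower, with a median log2 fold change of 1.15 against -0.09 over all tested genes. Over all genes 6.54% were called higher and 8.77% lower. At the other times the nuclear OXPHOS medians were -0.37 (8AM), 0.16 (12PM), 0.70 (8PM), 0.83 (12AM) and -0.13 (4AM). At 8PM 24 of the 76 were called higher, and at the rest of these times 0 were called. The 10 adipocyte markers had a median of 1.16 at 4PM, with 3 called higher. Cycs, the electron carrier cytochrome c, had 197 to 355 CPM in TAN and 79.7 to 103 CPM in ad-lib, a log2 fold change of 1.64 (SE 0.324, adjusted p = 0.00618). Cox5b, a subunit of cytochrome c oxidase, had 199 to 354 and 84.8 to 126 CPM, and the complex I subunit genes Ndufa8 and Ndufa10 rose by 1.21 and 0.99. Of the mitochondrial ribosomal protein genes, 54 of 77 were higher and 0 lower (median 0.74), with Mrps28 at 1.28, Mrpl34 at 1.10, Mrps15 at 1.03 and Mrps7 at 0.96. Of the tricarboxylic acid cycle genes, which ERRα is known to drive, 14 of 17 were higher and 0 lower (median 1.03). Pdhb, a subunit of pyruvate dehydrogenase, rose by 1.77, Mdh2 by 1.19, Cs, the citrate synthase, by 1.06 and Idh3b by 1.05.

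Of 37 PPAR target genes tested, 14 were higher and 2 lower at 4PM (median 0.73). The fatty acid oxidation genes Decr1, Hadh and Hadhb rose by 1.25, 1.18 and 1.03, and Plin2, a lipid droplet coat gene, by 1.09. The genes so far named from these 4 lists were the 4 of each list with the smallest p at 4PM. That choice favours separated libraries, and in every one of these genes the TAN libraries lay above the ad-lib libraries. Of all tested genes, 30.6% had no overlap between the diets at 4PM. Ppara itself differed by 0.39 at that time (SE 0.728, adjusted p = 0.756) and Rxra by 0.48 (SE 0.257, adjusted p = 0.185).

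The mitochondrial genome encodes core subunits of the respiratory chain. Of the 13 mitochondrially encoded protein genes, 1 was higher and 0 lower at 4PM (median 0.59), a share near the 6.54% of all genes called higher. This was mt-Co1, a subunit of cytochrome c oxidase, with 34661 to 50793 CPM in TAN and 19111 to 22557 CPM in ad-lib (log2 fold change 0.97, SE 0.324, adjusted p = 0.039). mt-Cytb (0.70), mt-Co2 (0.73) and mt-Nd3 (0.63), also named for a small p at 4PM, did not pass, although their TAN libraries lay above the ad-lib ones. In ad-lib mt-Cytb was at 7006 to 8185 CPM. mt-Co2 and mt-Nd3 were far below mt-Co1 there, at 25.7 to 35.2 and 15.1 to 18.7 CPM. Of 31 factors of mitochondrial DNA replication, transcription and RNA processing, 3 were higher and 0 lower (median 0.07), again near that 6.54%. These were Hsd17b10, a subunit of the mitochondrial RNase P, at 1.19 (adjusted p = 0.0129), Fastk at 0.73 (adjusted p = 0.0427) and Top1mt, the mitochondrial topoisomerase, at 0.67 (adjusted p = 0.0469). Tefm, the elongation factor of POLRMT, was at 0.74 (adjusted p = 0.0608). Tfam and Polrmt, in this same line of work, were at -0.03 and 0.02.

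Of 29 coregulators and partner factors, 0 were called higher and 6 lower at 4PM, against 8.77% of all genes called lower. Their median was -0.25, against -0.09 over all genes, and 11 of the 29 had a positive fold change. With the TEC share as a covariate the median was 0.14. Creb1 was at 58.4 to 78.3 CPM in TAN and 117 to 144 CPM in ad-lib (log2 fold change -0.89, adjusted p = 0.0154), the coactivator Ncoa3 at 24.1 to 37.1 and 62.9 to 89.3 CPM (-1.29, adjusted p = 0.0216) and Pprc1, a relative of the PGC-1 coactivators, at 1.45 to 6.43 and 7.66 to 19.5 CPM (-1.84, adjusted p = 0.036). Perm1, a coregulator best known from muscle, had 0 counts in the 4 TAN libraries and 75 in the 4 ad-lib libraries. The ad-lib libraries ran from 0.344 to 2.27 CPM with a median of 0.532, and the log2 fold change was -7.27 (SE 2.19, adjusted p = 0.0263). Against a floor of 3 counts over the group, the pooled counts were 20.6-fold lower, a value that leaves out the spread between libraries. The other 2 called genes were Gabpb1 and Gabpb2, the partners of GABPα, at -0.79 and -1.59, named here after their values were seen. The counts of these lists depended on single libraries and on the covariates. Without ad-lib 4PM replicate 3, 38 of the 76 nuclear OXPHOS genes were called, 9 of the 77 ribosomal protein genes, 3 of the 17 tricarboxylic acid cycle genes, and 0 of the PPAR targets, of the coregulators and of the mitochondrially encoded genes. Without TAN 4PM replicate 1 the counts were 50, 19 and 6 for the first 3 of these lists. With the lymphocyte level, the adipocyte level or the TEC share as a covariate, 0, 3 and 1 of the 76 nuclear OXPHOS genes were called at 4PM, with medians of 0.80, 0.75 and 0.71, and 0 of the 29 coregulators were called with each. Over the alternatives other than leaving out 1 library, the calls ran from 0 to 60 for the ribosomal proteins, from 0 to 16 for the tricarboxylic acid cycle and from 0 to 23 for the PPAR targets.

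**Figure D3:**
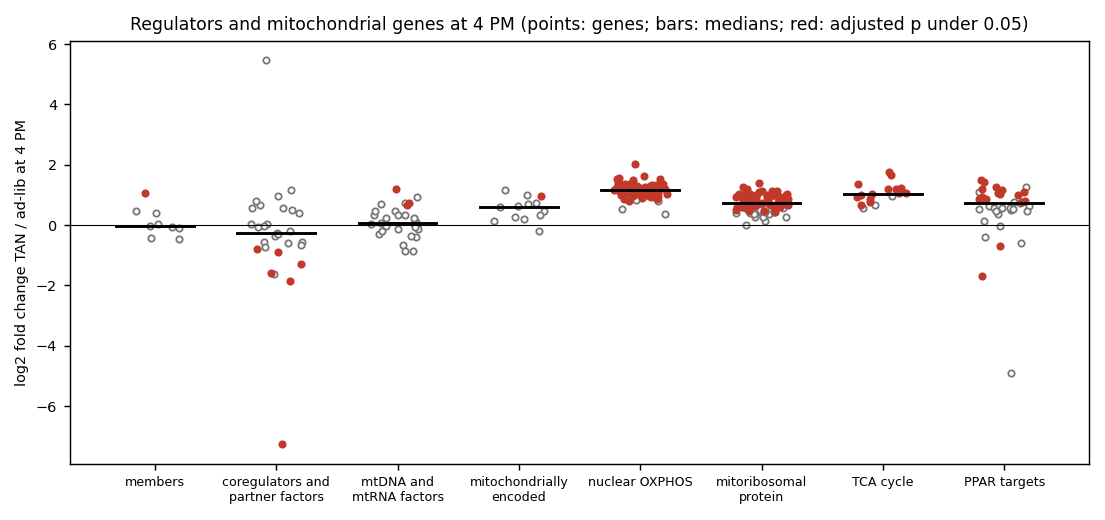
Log2 fold change of TAN over ad-lib at 4PM for each tested gene of the 9 members and of 7 gene lists, with 1 point per gene, bars for medians and red points for an adjusted p under 0.05. The nuclear OXPHOS genes sat around a median of 1.15, while Esrra (1.06) was the single red point among the members.

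The relation of each member to mitochondrial output was measured within groups, so that diet and time differences did not enter. Output was taken as the log2 of the summed CPM of the 13 mitochondrially encoded genes, as the mean log2 CPM of the 76 nuclear OXPHOS genes and as that of the 77 mitochondrial ribosomal protein genes. Their SD within groups was 0.406, 0.364 and 0.259. The first output is a sum, so the genes with the highest CPM weigh most in it. In ad-lib at 4PM the medians were 21809 CPM for mt-Co1, 7279 for mt-Cytb, 30.3 for mt-Co2 and 16.9 for mt-Nd3. The slope is the log2 change of a member per unit of log2 output in the edgeR model, and no member was part of an output. Of all tested genes, 37.1% had a slope on the mitochondrially encoded output that passed the test, 44.3% on the nuclear OXPHOS output and 40.1% on the ribosomal protein output. Among the members 3 of 9 passed for each output, which is near or under these shares and so is no result about the members as a set.

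Esrra ran with the nuclear outputs. Its slope was 0.59 on nuclear OXPHOS (SE 0.199, adjusted p = 0.0149) and 0.90 on the ribosomal proteins (SE 0.275, adjusted p = 0.00794), but -0.10 on the mitochondrially encoded output (SE 0.189, adjusted p = 0.712). With separate slopes per diet, those on nuclear OXPHOS were 0.57 in ad-lib and 0.61 in TAN, a difference of 0.04 (SE 0.402), and neither passed alone (adjusted p = 0.111 and 0.129). Polrmt ran against the same outputs, with slopes of -0.92 (SE 0.323, adjusted p = 0.0194) and -1.25 (SE 0.466, adjusted p = 0.0293). With the TEC share as a covariate the adjusted p on nuclear OXPHOS was 0.222 for Esrra and 0.143 for Polrmt, and with the adipocyte marker level it was 0.168 for Esrra. On the ribosomal proteins the adjusted p of Esrra was 0.2 with the TEC share and 0.0642 with the adipocyte marker level, and that of Polrmt was 0.242 with the TEC share. The slope of Esrra on the mitochondrially encoded output was -0.76 with the adipocyte marker level (adjusted p = 0.018). On nuclear OXPHOS, the adjusted p of Esrra was 0.0611 without ad-lib 4AM replicate 1, and that of Polrmt was 0.0576 without ad-lib 12PM replicate 1. On the ribosomal proteins, Polrmt lost its call without ad-lib 12PM replicate 1 or 4 (adjusted p up to 0.0994). Ppargc1b had a slope of -2.50 on the ribosomal proteins (SE 1.03), just short of the test (adjusted p = 0.0501). It passed with RLE scaling (adjusted p = 0.0206), limma voom (0.0182), DESeq2 (0.0113) and the adipocyte marker level (2.06e-05), among others. It did not pass with the TEC share or no filter. Per diet its slope was -3.27 in ad-lib (adjusted p = 0.0355) and -0.39 in TAN (adjusted p = 0.917). Ppard was at -0.88 on the ribosomal proteins (adjusted p = 0.0951).

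Nrf1 ran against all 3 outputs. The slope was -0.77 on the mitochondrially encoded output (SE 0.12, adjusted p = 4.04e-06), -0.63 on nuclear OXPHOS (SE 0.161, adjusted p = 0.00157) and -0.69 on the ribosomal proteins (SE 0.24, adjusted p = 0.0197). With the lymphocyte marker level as a covariate the first fell short of the test (-0.40, adjusted p = 0.0774), and the slopes on the nuclear outputs were -0.21 (adjusted p = 0.247) and -0.18 (adjusted p = 0.48). With the adipocyte marker level these were -0.08 (adjusted p = 0.758) and -0.06 (adjusted p = 0.853), and with the TEC share -1.04 (adjusted p = 1.63e-05) and -1.72 (adjusted p = 8.46e-05). Without ad-lib 8AM replicate 4, ad-lib 12PM replicate 1 or TAN 8PM replicate 4 the slope on the ribosomal proteins did not pass (adjusted p up to 0.0678). The lymphocyte markers themselves ran against the mitochondrially encoded output, all 10 of 10 with a negative slope that passed. Tfam had a slope of -0.34 on the mitochondrially encoded output (SE 0.0949, adjusted p = 0.0047), which was -0.18 with the lymphocyte covariate (adjusted p = 0.476) and -0.30 with the adipocyte covariate (adjusted p = 0.136), and without ad-lib 8AM replicate 3 its adjusted p was 0.0582.

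Ppara was the member that ran with the mitochondrially encoded output. Its slope was 1.66 (SE 0.367, adjusted p = 0.000412), at 1.56 in ad-lib and 1.75 in TAN, a difference of 0.19 (SE 0.757). It stayed between 1.46 and 1.83 with each library left out, passed in all 48 of those fits, and had an adjusted p of 0.0531 with the adipocyte marker level as a covariate. All 10 adipocyte markers had a positive slope on this output. Rxra (0.32, adjusted p = 0.0673) and Gabpa (0.06, adjusted p = 0.598) did not pass. No slope of any of the 19977 genes differed between the diets for any output after adjustment.

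**Figure D4:**
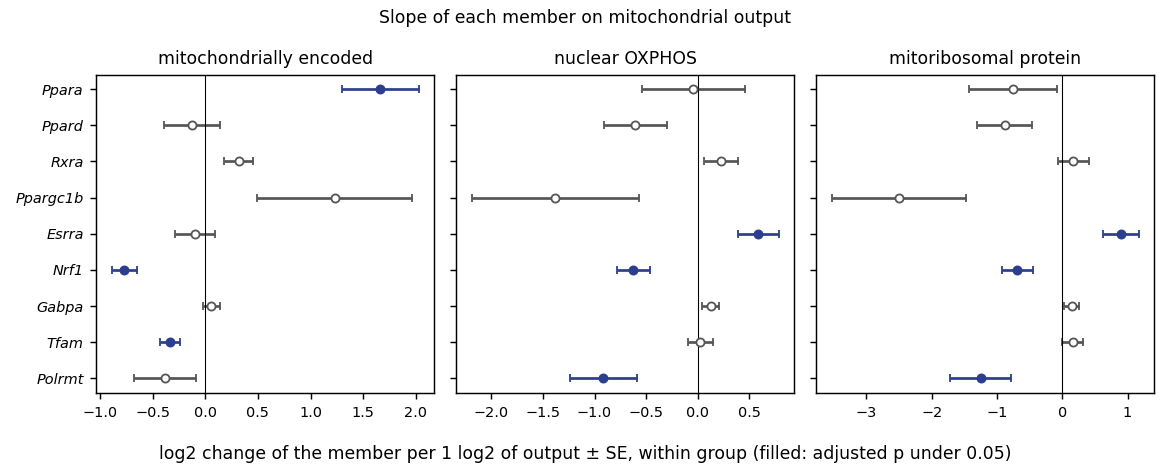
Slope of each member (rows) on the 3 measures of mitochondrial output (panels), as log2 change per unit of log2 output within group, with its SE. Filled points mark an adjusted p under 0.05, on the positive side for Ppara (1.66) and Esrra (0.59 and 0.90) and on the negative side for Nrf1, Tfam and Polrmt.

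**Figure D5:**
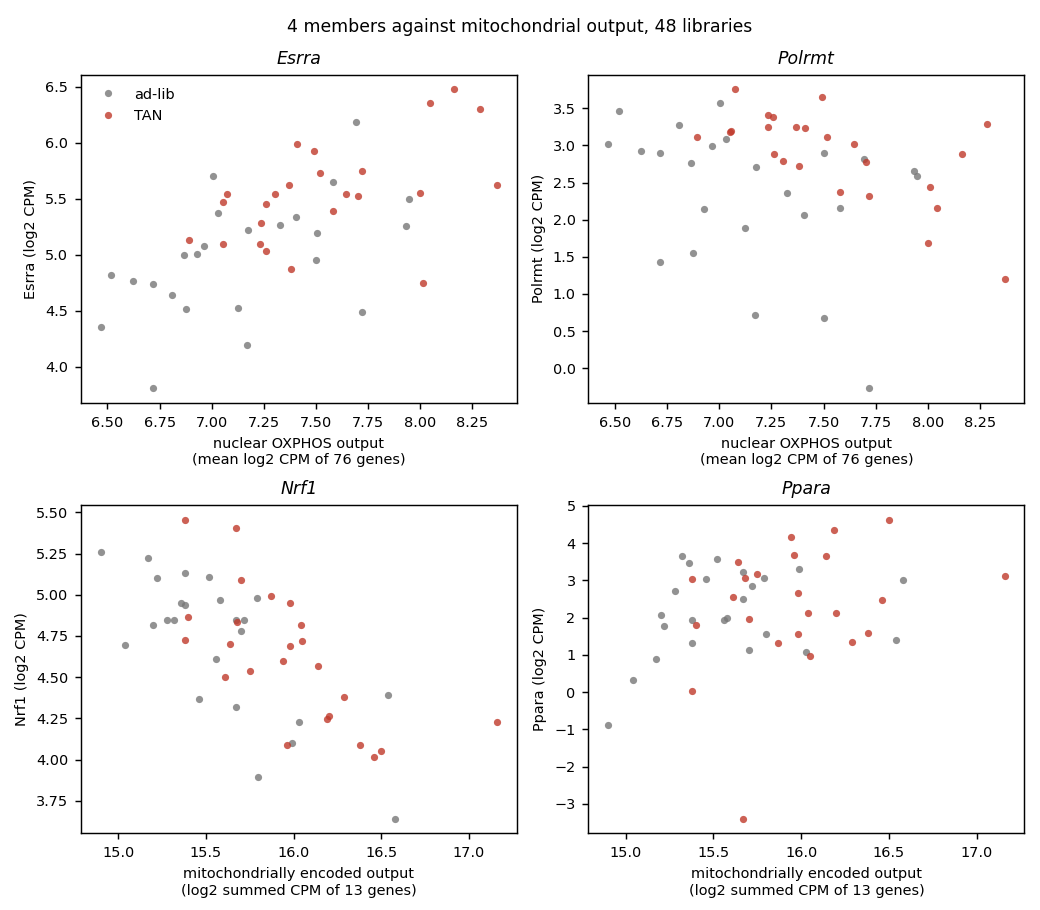
Log2 CPM of 4 members against an output in the 48 libraries, grey for ad-lib and red for TAN. Esrra (slope 0.59) and Polrmt (slope -0.92) are shown against nuclear OXPHOS output and Nrf1 (slope -0.77) and Ppara (slope 1.66) against mitochondrially encoded output, with points of both diets across the range of each. The slopes were fitted within groups, whereas the points are not centred, so diet and time differences enter them.

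The members did not follow a common time course. Over the 12 group means of log2 CPM, the correlation between Ppara, Ppard and Ppargc1b was 0.64 to 0.71, Tfam was opposite to each of them at -0.71, -0.84 and -0.63, and Esrra was at -0.27, -0.12 and -0.41. These are descriptions over groups that share library makeup. The 3 tested genes most like each member were those with the highest r over the 12 means. That choice among all tested genes by itself favours high values. For Esrra they were Pgp (r = 0.96), Mbd3 (0.944) and AU022252 (0.929). Those most like Ppara were Aox1 (0.952), 4732463B04Rik (0.943) and Ccdc181 (0.942), and those most like Ppargc1b were Gen1, Atp11a and Spg11 (0.962 to 0.969). For Ppard they were Nf2, Atg9a and Vwa3a (0.944 to 0.962), and for Rxra Hoxa7, Mgll and Col18a1 (0.939 to 0.958). Nrf1 was most like Tgtp1, Med17 and Gm45734 (0.927 to 0.932), Gabpa most like Sfrp2, Procr and Mbtps2 (0.925 to 0.928), Tfam most like Vamp4, Eif2b2 and Tmem243 (0.946 to 0.958) and Polrmt most like Lrfn4, Zfp865 and Fam222b (0.935 to 0.945).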

How the data were processed

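RNA of 48 sWAT libraries (poly-A selected, paired-end; strandedness not given in the sources used here) was sequenced, and groups were taken from the GEO labels. The deposited raw counts per gene were used for every test, and the FPKM values were the authors' means of 4 libraries. The submitters' processing notes name TopHat 1.3.3, DESeq2 1.20.0, limma and edgeR, and builds mm9, mm10 and GRCm38, with no role. The series holds no column of sample values that was left unused (0).

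Low genes were dropped by edgeR's filterByExpr (minimum count 10), libraries were scaled by TMM, and 12 diet by time groups were fitted with robust quasi-likelihood tests in edgeR 4.0.16 (R 4.3.3), with Benjamini-Hochberg adjustment over 19977 genes and a threshold of 0.05. Log2 CPM used a prior count of 2, and intervals were 95% with 36 residual degrees of freedom. A 24-h harmonic was tested as contrasts of the group means. Slopes used output centred within group. The fits were tested on simulated data. Alternatives were RLE scaling, other filters, limma voom (limma 3.58.1), DESeq2 1.42.0, a replicate block, marker covariates and leaving out each library. The TEC covariate, leaving out 2 TAN 8PM libraries and slopes per diet were chosen after seeing the data. Genes named from each list were the 4 with the smallest p at 4PM, the time with most members called, and those most alike the 3 with the highest correlation. The members and lists were chosen with earlier results of these data known.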

Additional observations from a re-analysis of the deposited data

Results flagged for a closer look

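In 7 of the 108 groups of 4 libraries (9 members in 12 groups), the highest library stood apart from the other 3 by more than Dixon's 95% value, where chance gives about 1 in 20. Ppara reached 8.28 CPM in 1 ad-lib library at 12AM (others 3.70 to 4.14) and 8.65 CPM in 1 TAN library at 12AM (others 2.45 to 2.93). Ppargc1b reached 9.44 CPM in ad-lib at 8AM (others 0.262 to 1.01), 6.35 CPM in ad-lib at 4PM (others 2.16 to 2.44) and 2.42 CPM in TAN at 8PM (others 0 to 0.237). Esrra reached 78.8 CPM in TAN at 12AM (others 46.5 to 49.1), and Gabpa 94.9 CPM in TAN at 8PM (others 68.1 to 72.1). The 24-h harmonic of Esrra differed between the diets in a direct test (adjusted p = 0.0458, edgeR).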

How the results depend on the processing

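With the main settings 1 of 54 member and time pairs was called, 1 of 9 members in the mean over times, 0 in the test of the TAN effect between times, 1 in the variation over time in TAN, 0 in the harmonic in TAN, 1 in the harmonic between the diets and 3 for each slope. Over the times, 2 pairs were called with RLE, at least 10 counts, limma voom, DESeq2, the muscle covariate or without the 2 TAN 8PM libraries, and 0 with no filter or the lymphocyte or TEC covariate. The TEC covariate gave 0 for the mean, the variation in TAN and the harmonic between the diets. With limma voom the counts were 1 for the TAN effect between times, 2 for the variation in TAN, 2 for the harmonic in TAN and 2 between the diets. At least 10 counts removed Ppara and left 0 in the variation in TAN, and the lymphocyte covariate gave 2. The harmonic in TAN had 1 with the lymphocyte and 3 with the adipocyte covariate, and that between the diets 0 with no filter. The slope on mitochondrially encoded output had 1 with the lymphocyte covariate, that on nuclear OXPHOS 5 with the lymphocyte and 6 with the adipocyte covariate, and that on ribosomal proteins 5 with limma voom, DESeq2 or the lymphocyte and 6 with the adipocyte covariate. The causes were not tested. With the TEC covariate the slope turned to 1.72 for Ppara and -0.39 for Tfam on nuclear OXPHOS and to -0.69 for Tfam on ribosomal proteins, and with the adipocyte covariate that of Rxra to -0.46 and -0.52. Leaving out 1 library gave 0 to 3 over the times, 1 to 1 for the mean, 0 to 1 between times, 0 to 2 for the variation in TAN, 0 to 1 for the harmonic in TAN and between the diets, 2 to 4, 2 to 5 and 1 to 5 for the slopes, and 0 to 0 for ad-lib.

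Same-numbered libraries were not paired: 10 of 24 correlations of their deviations were over 0.1 (-0.586 to 0.844). The replicate block gave 1 call over the times, 1 in the mean, 0 between times, 1 in the variation and 0 in the harmonic in TAN, 1 in the harmonic between the diets, and 3, 4 and 5 for the slopes. DESeq2 gave no adjusted p for 5 members in the harmonic in ad-lib. Low counts limit Ppara, Ppargc1b, Ppard and Polrmt.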
